A study of Mus musculus with 23 samples.

Results

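The ZIC family of transcription factors was followed through mouse medulloblastoma (MB) models and normal cerebellum. Its members were taken as every probe set annotated to Zic1, Zic2, Zic4 or Zic5 and to no other gene, which gave 4 genes and 8 probe sets out of 18194 genes and 34958 probe sets annotated to 1 gene. Zic2 has 1 probe set on the array, Zic1 and Zic4 have 2 each and Zic5 has 3. Levels are log2 intensities from robust multi-array averaging (RMA), so that a difference of 1 is a doubling of signal, and all differences below are on this log2 scale. Where a gene has several probe sets, the one with the highest mean over all arrays stands for the gene, and the others are described beside it.

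The study asked whether tumours made by somatic CRISPR/Cas9 disruption of Ptch1, the receptor that holds the sonic hedgehog (SHH) pathway off, resemble SHH MB made by other means. RNA from 23 samples of mouse, all labelled as strain CD1, was measured on Affymetrix whole-genome expression arrays. CRISPR-Ptch1 (EP) tumours, 2 arrays, arose after in utero electroporation of the embryonic cerebellum of wild-type mice, and the CRISPR-Ptch1 (TF) tumour, 1 array, after transfection of the neonatal cerebellum. Full MB was obtained by transfection in Trp53-/- mice according to the study. In the other SHH models Ptch1 was lost from 1 allele of the germline (Ptch1+/-, 4 arrays) or after birth in cells that express Math1, also named Atoh1, in mice that carry a Cre recombinase under Atoh1 control and floxed Ptch1 alleles (MERP, 5 arrays). GTML tumours, 4 arrays, arose from overexpression of the Mycn oncogene, without a lesion of Ptch1 in the labels, and the transgene of this model is driven from the promoter of the glutamate transporter gene Glt1. Normal samples were 3 arrays of granule neuron precursors (GNPs), taken at postnatal ages from P4 to P7, and whole adult cerebellum, 4 arrays. The EP and TF tumours were tested together as CRISPR-Ptch1 (n = 3) and are given apart as values. The study describes expression profiles of 3 EP and 3 TF tumours and lists a different mouse for each. This series holds 2 EP arrays and 1 TF array. The labels do not say which arrays came from separate animals, so p-values measure the spread between these arrays only. The study's methods place the hybridisation of tumour, GNP and adult RNA at a single core facility, whereas its results call the profiles of the other models published. The labels give no array batch, and batches were not tested.

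ZIC proteins carry C2H2 zinc fingers that are closely related to those of the GLI factors, the transcriptional end points of the SHH pathway, and they can bind DNA and interact with GLI proteins. Zic1 and Zic4 lie side by side, and loss of the human pair is associated with Dandy-Walker malformation, in which the cerebellum is underdeveloped. Zic2 and Zic5 form another neighbouring pair, and mutations of human ZIC2 cause holoprosencephaly. In the cerebellum Zic1 marks the granule lineage from its precursors to the mature neuron, and Zic genes are also expressed in the meninges.

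The genomic arrangement of the members is shown first because Zic1 and Zic4, which share a locus, were the members with the widest differences. In mouse build GRCm38.p6 (RefSeq), Zic1 spans chr9:91358058-91365768 on the minus strand and Zic4 spans chr9:91365631-91389351 on the plus strand. The gene spans overlap by 138 bases at their 5′ ends, and the start sites of the promoter table lie 3204 bases apart. The Zic4 start site in that table lies 3341 bases inside the Zic4 span, so its window is not at the end of the gene that overlaps Zic1. Zic5 spans chr14:122459160-122465658 on the minus strand and Zic2 spans chr14:122475384-122480328, with 9725 bases between them. A further gene, 2610035F20Rik, touches the stretch between Zic5 and Zic2. The promoter windows, 250 bases before to 50 bases after a start site, matched 3 of the 4 members. They are printed from RefSeq for Zic1 (chr9:91365719-91366018, minus strand), Zic4 (chr9:91368722-91369021, plus strand) and Zic5 (chr14:122465609-122465908, minus strand), each 5′ to 3′ in lower case, with capitals for the E-box CACGTG, the sequence that MYC family proteins bind with MAX.
Zic1: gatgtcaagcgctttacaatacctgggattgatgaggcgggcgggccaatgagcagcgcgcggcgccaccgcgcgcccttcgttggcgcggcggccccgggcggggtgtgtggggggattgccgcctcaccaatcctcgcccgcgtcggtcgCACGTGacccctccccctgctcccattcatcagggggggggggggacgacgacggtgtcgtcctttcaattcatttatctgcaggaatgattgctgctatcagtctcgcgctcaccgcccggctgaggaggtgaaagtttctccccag
Zic4: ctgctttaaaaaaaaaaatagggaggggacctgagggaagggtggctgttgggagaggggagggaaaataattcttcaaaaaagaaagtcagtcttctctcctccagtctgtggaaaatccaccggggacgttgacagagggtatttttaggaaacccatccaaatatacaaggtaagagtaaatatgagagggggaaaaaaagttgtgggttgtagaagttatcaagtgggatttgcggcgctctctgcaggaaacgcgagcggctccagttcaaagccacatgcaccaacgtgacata
Zic5: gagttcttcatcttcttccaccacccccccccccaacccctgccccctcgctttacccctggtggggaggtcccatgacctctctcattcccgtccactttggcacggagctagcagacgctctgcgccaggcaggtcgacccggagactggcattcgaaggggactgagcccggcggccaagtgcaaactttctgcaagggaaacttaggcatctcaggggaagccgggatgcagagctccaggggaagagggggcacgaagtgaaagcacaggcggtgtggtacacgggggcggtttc
The Zic1 window held 31 CpG dinucleotides at 65.3% GC, the Zic5 window 15 at 62.7% GC and the Zic4 window 8 at 46.0% GC, and 89.4%, 65.4% and 51.4% of the 32851 promoter windows of the table held fewer CpG, respectively. CACGTG, which reads the same on both strands, occurred once in the Zic1 window, with its first base at position -98 from the start site, and was found in neither of the other windows. It was found in 7.15% of all promoter windows. The GLI core GACCACCCA, searched on both strands, was in none of the 3 windows and in 0.253% of all windows. These matches describe letters in a window and no binding was measured.

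Across the arrays 1 pattern set the GTML tumours apart. Zic1, Zic4 and Zic2 were lower in GTML than in each of the 5 other groups, by 7.32 to 7.79 for Zic1, 3.39 to 4.98 for Zic4 and 1.28 to 2.15 for Zic2, whereas Zic5 stayed within the range of the Ptch1 models. Among the Ptch1 models themselves 1 of 12 comparisons of a member was called on the probe set used for the gene. Other probe sets of Zic4 and Zic5 were also called between these models. Zic4 and Zic5 were both higher in all tumour groups with Ptch1 lesions and in GNPs than in adult cerebellum. Of the 60 comparisons, 4 genes in 15 pairs of groups, 32 were called at an adjusted p under 0.05. Tests are limma with Benjamini-Hochberg adjustment over all 18194 genes of a comparison.

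How common such calls were differed by comparison. In CRISPR-Ptch1, Ptch1+/- and MERP against GTML, 3 of the 4 members were higher, as were 22.7%, 16.6% and 23.4% of all genes. In GTML against GNPs all 4 members were lower, as were 25.7% of all genes. In GTML against adult cerebellum 3 members were lower and 1 was higher, where 27.9% and 27.3% of all genes were. In CRISPR-Ptch1, Ptch1+/- and MERP against adult cerebellum, Zic4 and Zic5 were higher, as were 26.4%, 22.4% and 30.8% of all genes, and Zic2 was lower in the first, as were 21.1% of all genes. In GNPs against adult cerebellum the same 2 members were higher, as were 29.1% of all genes. Against GNPs, 2 members were lower in CRISPR-Ptch1, 1 in Ptch1+/- and 2 in MERP, as were 7.95%, 29.9% and 12.1% of all genes. Between Ptch1 models, 1 member was called in CRISPR-Ptch1 against Ptch1+/-, where 36.8% of all genes were called, and none in CRISPR-Ptch1 against MERP (13.3% of all genes) or Ptch1+/- against MERP (32.0%). With 4 members, these shares are a background and no test of the family. The median difference over all genes lay between -0.14 and 0.12 in the 15 comparisons, well under the called differences of the members from GTML.

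**Figure D1:**
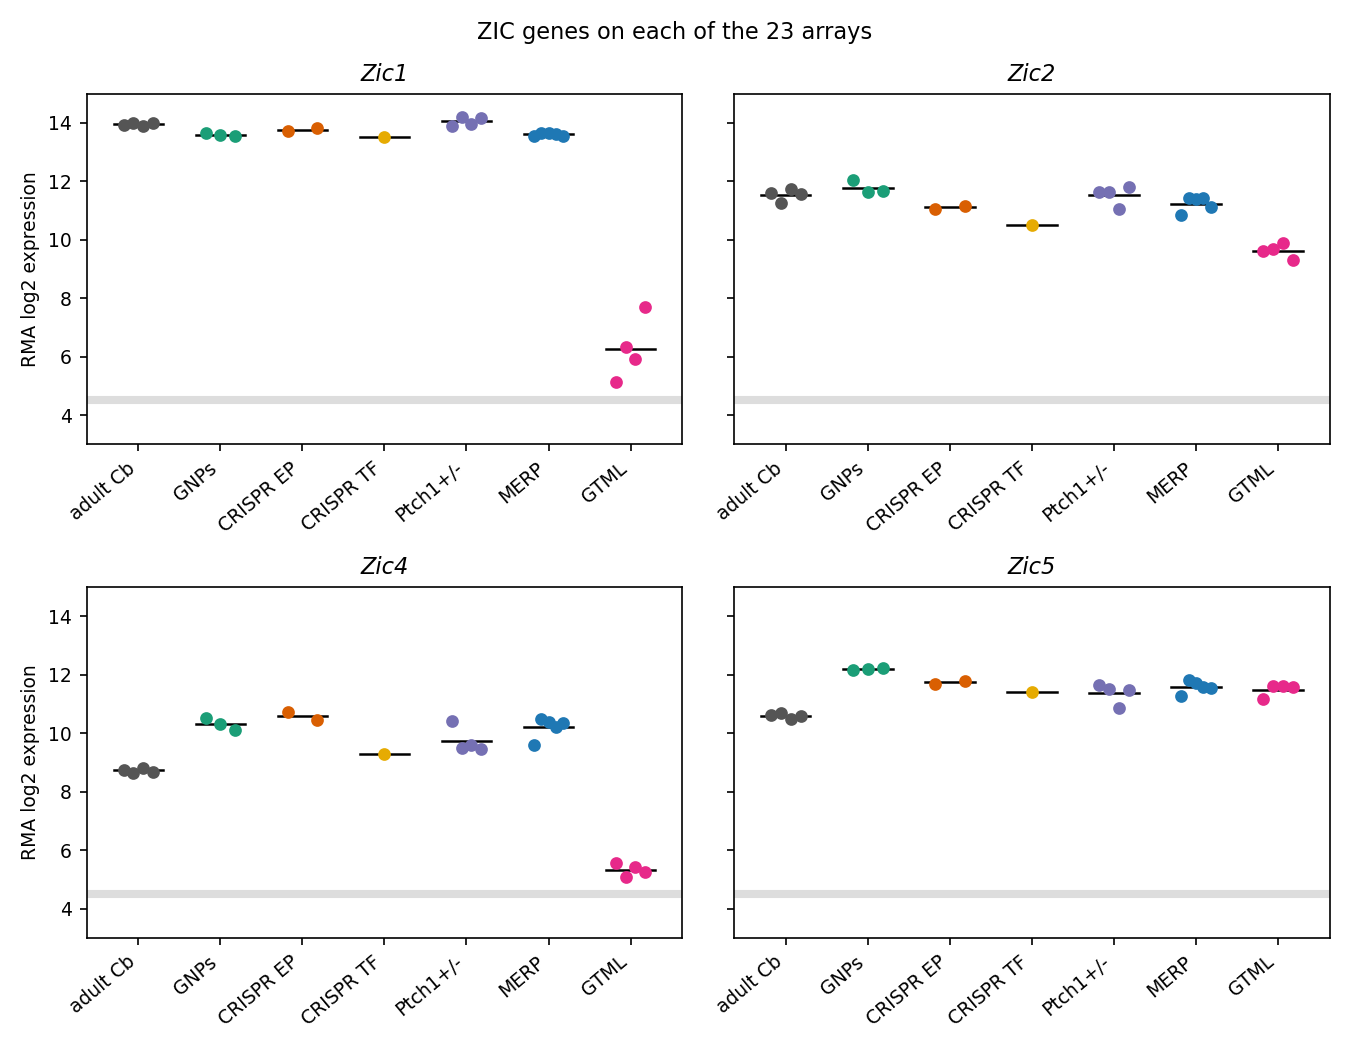
RMA log2 level (vertical axis) of the probe set used for each ZIC gene on each array, by group (horizontal axis). Each point is 1 array, the horizontal line is the group mean, and the grey band spans the arrays' lower quartiles, 4.40 to 4.61. The 4 GTML arrays lie between 5.13 and 7.71 for Zic1 and between 5.10 and 5.55 for Zic4, below all 19 other arrays, whereas for Zic5 they lie between 11.15 and 11.62 among the other tumours.

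Zic1, the member most closely tied to the granule lineage, was at a high and narrow level in all groups but GTML. Its level on the EP arrays was 13.71 and 13.81, and on the TF array 13.50. The 4 Ptch1+/- arrays were at 13.88, 14.20, 13.97 and 14.18, and the 5 MERP arrays at 13.56, 13.64, 13.66, 13.62 and 13.56. GNPs were at 13.64, 13.56 and 13.55, and adult cerebellum at 13.92, 13.98, 13.90 and 13.97. In GTML tumours the values were 5.13, 6.34, 5.90 and 7.71, with a mean of 6.27 ± 1.08 (SD, n = 4), so that no GTML array reached the lowest array of any other group, and the spread among them was wider than in any other group.

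Zic1 was called in all 5 comparisons with GTML and in no other. CRISPR-Ptch1 tumours exceeded GTML by 7.41 (SE 0.33, adjusted p = 4.24e-13 in limma), which is 170-fold. The difference was 7.79 (SE 0.30, adjusted p = 3.66e-14) for Ptch1+/- tumours and 7.34 (SE 0.29, adjusted p = 3.09e-14) for MERP tumours. GTML lay 7.32 below GNPs (log2 difference -7.32, SE 0.33, adjusted p = 3.78e-13) and 7.68 below adult cerebellum (-7.68, SE 0.30, adjusted p = 7.62e-15). GTML replicate 1, at 5.13, was near the lower end of the array scale, so these differences and the 170-fold value may be lower limits. The second Zic1 probe set showed the same order, with GTML arrays at 3.65, 4.70, 4.79 and 6.72 against 12.81 to 13.54 on all other arrays. Its GTML mean of 4.96 was close to the arrays' lower quartiles of 4.40 to 4.61, where a difference is a lower limit, and its differences from GTML reached 8.50 (-8.50 against adult cerebellum). In the remaining 10 comparisons the intervals of Zic1 were wide in this fit, which shares 1 spread over all groups, GTML included. For MERP against GNPs the difference was 0.02 (95% interval -0.63 to 0.67), and for Ptch1+/- against MERP, whose arrays did not overlap, it was 0.45 (-0.15 to 1.05, adjusted p = 0.254). With only the groups compared in the fit, 5 of these 10 were called, among them Ptch1+/- against MERP at adjusted p = 0.00923. Without GTML replicate 4, which had the highest Zic1 level of its group, Ptch1+/- was called above MERP (0.45, adjusted p = 0.0285) and above GNPs (0.47, adjusted p = 0.0366).

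Zic4, transcribed in the opposite direction from the neighbouring start, was low in the same tumours. EP arrays were at 10.71 and 10.46 and the TF array at 9.27. Ptch1+/- arrays were at 10.41, 9.50, 9.59 and 9.45, and MERP arrays at 9.59, 10.49, 10.39, 10.22 and 10.35. GNPs were at 10.52, 10.31 and 10.09, adult cerebellum at 8.75, 8.64, 8.82 and 8.68, and GTML at 5.55, 5.10, 5.41 and 5.27. The 4 GTML arrays were the lowest of the 23 and the 4 adult arrays came next, with no overlap between either group and the rest.

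The GTML arrays were close to the lower end of the array scale for Zic4, so its differences from GTML are read as lower limits. Against GTML, Zic4 was higher by 4.82 in CRISPR-Ptch1 tumours (SE 0.28, adjusted p = 2.49e-11), 4.40 in Ptch1+/- tumours (SE 0.25, adjusted p = 1.69e-11) and 4.88 in MERP tumours (SE 0.24, adjusted p = 1.44e-12) in limma. GTML also lay below GNPs (-4.98, SE 0.28, adjusted p = 1.07e-11) and below adult cerebellum (-3.39, SE 0.25, adjusted p = 2.41e-10). The second Zic4 probe set was called in the same direction in all 5, with GTML lower by 2.43 to 4.15. There the GTML arrays, at 4.08, 3.66, 3.58 and 4.43, were below the arrays' lower quartiles, so that these differences are also lower limits. Zic4 was higher than in adult cerebellum by 1.43 in CRISPR-Ptch1 (SE 0.28, adjusted p = 0.000178), 1.01 in Ptch1+/- (SE 0.25, adjusted p = 0.00181), 1.49 in MERP (SE 0.24, adjusted p = 1.73e-05) and 1.59 in GNPs (SE 0.28, adjusted p = 4.66e-05). Both Zic4 probe sets were called in each of these 4 comparisons.

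Zic2, the broad developmental member, was lower in GTML to a smaller extent. EP arrays were at 11.05 and 11.16 and the TF array at 10.50. Ptch1+/- arrays were at 11.64, 11.63, 11.05 and 11.81, and MERP arrays at 10.85, 11.41, 11.38, 11.42 and 11.10. GNPs were at 12.04, 11.63 and 11.66, adult cerebellum at 11.60, 11.25, 11.73 and 11.55, and GTML at 9.62, 9.67, 9.88 and 9.32. Every GTML array was again below every other array, though far above the lower quartile of its array.

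Zic2 exceeded GTML by 1.28 in CRISPR-Ptch1 (SE 0.20, adjusted p = 2.77e-05), 1.91 in Ptch1+/- (SE 0.18, adjusted p = 3.10e-08) and 1.61 in MERP tumours (SE 0.17, adjusted p = 1.93e-07) in limma. GTML was 2.15 below GNPs (-2.15, SE 0.20, adjusted p = 1.99e-08), a 4.44-fold difference, and 1.91 below adult cerebellum (-1.91, SE 0.18, adjusted p = 9.71e-09). On the probe sets used for the genes, Zic2 was the only member called between Ptch1 models. CRISPR-Ptch1 was below Ptch1+/- by 0.63 (-0.63, SE 0.20, adjusted p = 0.0157), although the arrays of these groups overlapped. Other probe sets of Zic4 and Zic5 were also called between Ptch1 models. For Zic4 these were CRISPR-Ptch1 minus Ptch1+/- (0.97) and Ptch1+/- minus MERP (-0.91), and for Zic5 Ptch1+/- minus MERP (0.68). Zic2 in CRISPR-Ptch1 was also below GNPs (-0.87, SE 0.21, adjusted p = 0.00686) and adult cerebellum (-0.63, SE 0.20, adjusted p = 0.0114). With the EP tumours alone the differences from Ptch1+/- and from adult cerebellum were both -0.43 and not called, with adjusted p = 0.123 and 0.107 in limma. Without Ptch1+/- replicate 4 the former was -0.54 (adjusted p = 0.0549). MERP was below GNPs by 0.54 (-0.54, SE 0.19, adjusted p = 0.0493), and this call was lost on leaving out 1 array in 14 of 23 cases, with differences of -0.61 to -0.41. Ptch1+/- against MERP was called only without Ptch1+/- replicate 3 (0.46, adjusted p = 0.0462). In Ptch1+/- against adult cerebellum the interval of the difference was -0.38 to 0.38, with a mean of 11.53 in both. Cell type markers also differed between CRISPR-Ptch1 and Ptch1+/-, where Zic2 was lower in the first. Called higher in CRISPR-Ptch1 were 4 of 4 Purkinje cell, 5 of 7 mature granule neuron, 2 of 4 oligodendrocyte and 2 of 5 astrocyte and Bergmann glia markers. So were 5 of 5 microglia and macrophage and 4 of 8 meninges and fibroblast markers, and 28.5% of all genes. Of 8 GNP markers 1 was higher and 1 lower, and no choroid plexus or endothelial marker was called. The part of any of these cell types in the Zic2 difference was not tested.

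Zic5, the neighbour of Zic2, did not follow the other members in GTML. EP arrays were at 11.68 and 11.79 and the TF array at 11.41. Ptch1+/- arrays were at 11.63, 11.52, 10.86 and 11.49, and MERP arrays at 11.26, 11.81, 11.71, 11.59 and 11.55. GNPs were at 12.16, 12.19 and 12.22, adult cerebellum at 10.63, 10.69, 10.48 and 10.58, and GTML at 11.15, 11.62, 11.60 and 11.57. GNPs were above and adult cerebellum below every tumour array, and the GTML arrays lay among those of the other tumours.

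The difference of Zic5 from GTML was 0.14 for CRISPR-Ptch1 (95% interval -0.20 to 0.48), -0.11 for Ptch1+/- (-0.43 to 0.20) and 0.10 for MERP tumours (-0.20 to 0.40), and none was called. On the probe set used for the gene, all 4 tumour groups were below GNPs in limma, by 0.56 in CRISPR-Ptch1 (-0.56, SE 0.18, adjusted p = 0.0348), 0.82 in Ptch1+/- (-0.82, SE 0.16, adjusted p = 0.000435), 0.61 in MERP (-0.61, SE 0.16, adjusted p = 0.00766) and 0.70 in GTML (-0.70, SE 0.16, adjusted p = 0.00150). With the EP tumours alone the first of these was -0.45 and not called (adjusted p = 0.136), and it was not called without EP replicate 1 (-0.59) or without GNP replicate 1 (-0.58), 2 (-0.56) or 3 (-0.55). All 4 tumour groups were above adult cerebellum, by 1.03 in CRISPR-Ptch1 (SE 0.16, adjusted p = 1.88e-05), 0.78 in Ptch1+/- (SE 0.15, adjusted p = 0.000145), 0.99 in MERP (SE 0.14, adjusted p = 4.03e-06) and 0.89 in GTML (SE 0.15, adjusted p = 3.06e-05). GNPs exceeded adult cerebellum by 1.60 (SE 0.16, adjusted p = 3.95e-08), a 3.03-fold difference.

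**Figure D2:**
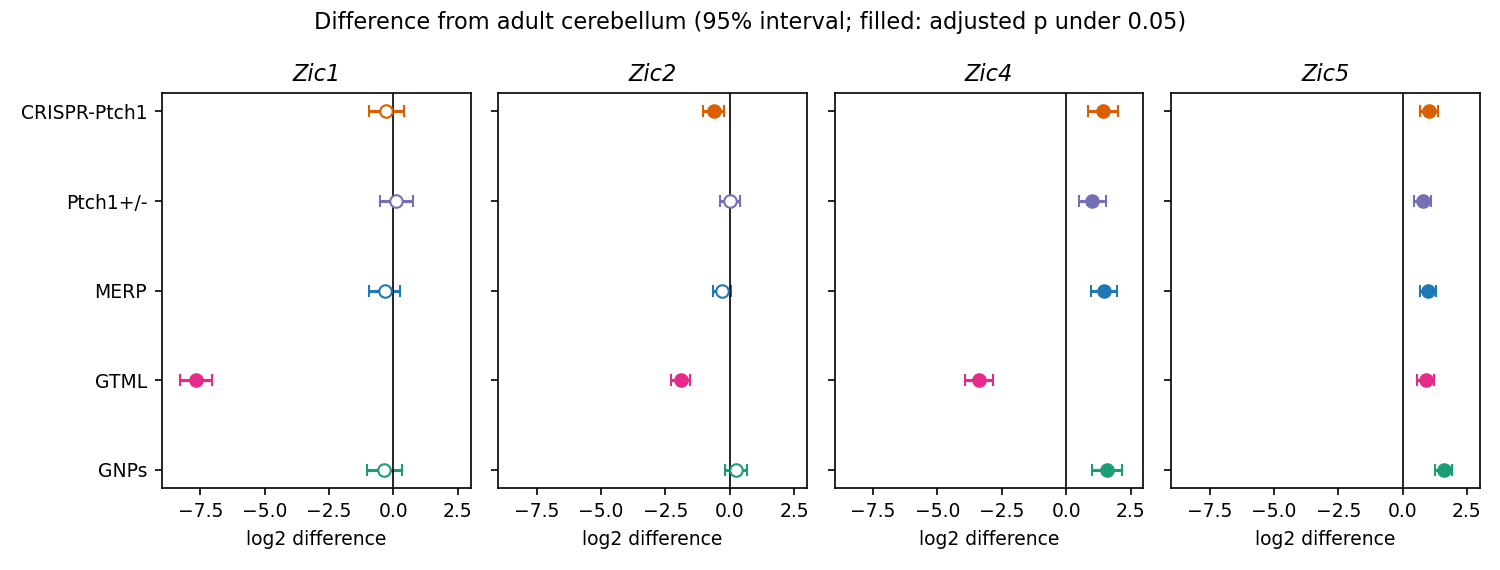
log2 difference from adult cerebellum (horizontal axis) of each ZIC gene in the other groups, with 95% intervals from limma. Filled points were called at an adjusted p under 0.05. Zic4 and Zic5 are higher than in adult cerebellum in CRISPR-Ptch1, Ptch1+/- and MERP tumours and in GNPs, whereas in GTML Zic5 is higher by 0.89 and Zic1, Zic4 and Zic2 are lower by 7.68, 3.39 and 1.91.

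The probe sets of Zic5 were less uniform than those of Zic1 and Zic4. All 3 Zic5 probe sets were called higher in GNPs than in adult cerebellum, by 1.18 to 1.60, and lower in MERP than in GNPs, by 0.61 to 1.10 (from -1.10 to -0.61). A second Zic5 probe set, with group means from 10.44 to 11.63, was called higher in Ptch1+/- than in MERP by 0.68 (SE 0.15, adjusted p = 0.00116) and lower in MERP than in GTML by 0.44 (-0.44, SE 0.15, adjusted p = 0.0229), where the probe set used for the gene gave -0.21 and 0.10 and was not called. The latter call was lost without GTML replicate 2 or 3 or MERP replicate 1 or 4, with differences of -0.36, -0.39, -0.32 and -0.40, respectively, and with arrays centred on their medians (-0.33). Against GNPs the second Zic5 probe set was not called in CRISPR-Ptch1 (-0.51, adjusted p = 0.0715), Ptch1+/- (-0.14, adjusted p = 0.555) or GTML (-0.38, adjusted p = 0.0759). The third Zic5 probe set was called below GNPs in Ptch1+/- and GTML (-1.07 and -0.92) and not in CRISPR-Ptch1 (-0.82, adjusted p = 0.0583). The third Zic5 probe set, with group means from 6.71 to 8.05, was not called against adult cerebellum in any tumour group, with differences of 0.24 to 0.52. For Zic4 the second probe set was called where the first was not in CRISPR-Ptch1 against Ptch1+/- (0.97, SE 0.19, adjusted p = 0.000391), Ptch1+/- against MERP (-0.91, SE 0.17, adjusted p = 0.00026) and Ptch1+/- against GNPs (-0.67, SE 0.19, adjusted p = 0.00658). The first gave 0.41, -0.47 and -0.57 there, in the same direction. It was called in the last 2 of these without Ptch1+/- replicate 1, the array with the highest Zic4 level of its group (-0.69, adjusted p = 0.0284, and -0.79, adjusted p = 0.0205), and in the last also without the TF tumour (-0.57, adjusted p = 0.0371). These probe set values come from a limma fit over all 34958 probe sets. In that fit 35.7%, 40.7% and 37.6% of all probe sets were called in CRISPR-Ptch1, Ptch1+/- and MERP against GTML, and 40.2% and 52.5% in GTML against GNPs and adult cerebellum. Against adult cerebellum 43.8% were called in CRISPR-Ptch1, 52.6% in Ptch1+/-, 52.6% in MERP and 46.9% in GNPs. The share was 38.8% in CRISPR-Ptch1 against Ptch1+/-, 33.9% in Ptch1+/- against MERP, 40.6% in Ptch1+/- against GNPs and 15.4% in MERP against GNPs.

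**Figure D3:**
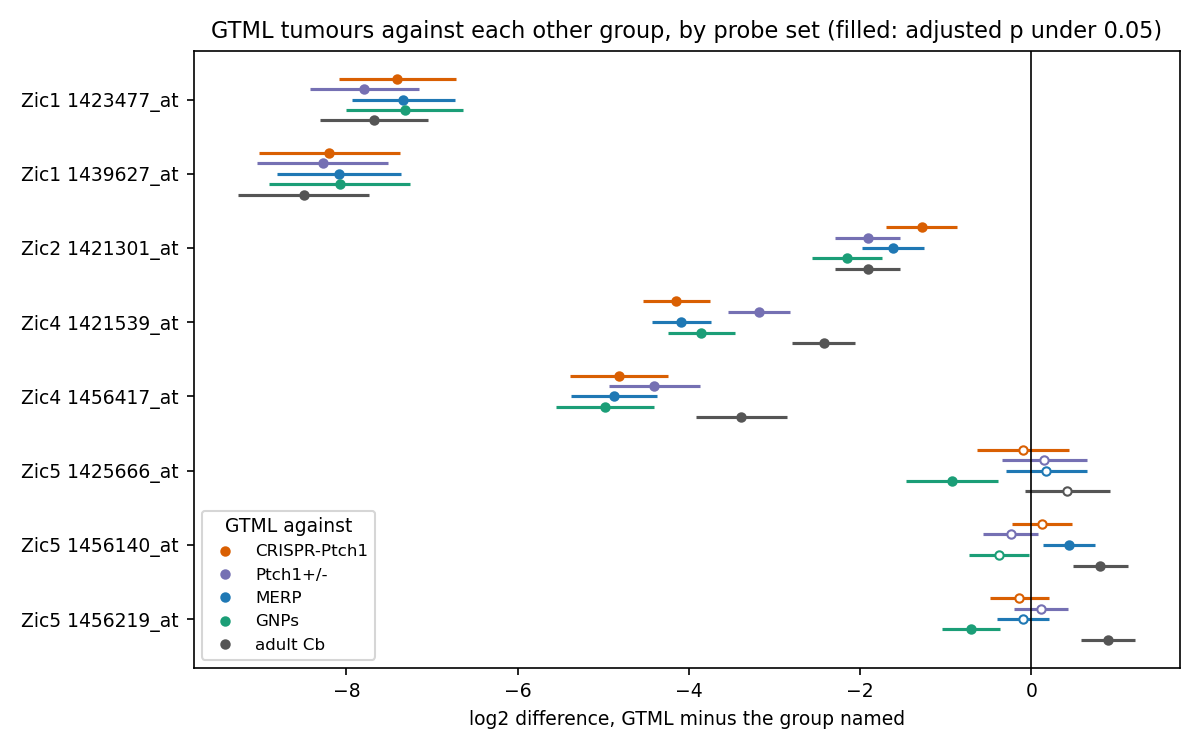
log2 difference of GTML minus each other group (horizontal axis) for all 8 ZIC probe sets, with 95% intervals from the limma fit over probe sets. Filled points were called at an adjusted p under 0.05. The probe sets of Zic1, Zic2 and Zic4 lie left of 0 in all 5 comparisons, and those of Zic5 lie around 0 against the Ptch1 models.

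The EP and TF tumours were set side by side without a test, since there is 1 TF array. The TF array was below both EP arrays for all 4 genes. The gap was widest for Zic4, at 9.27 against an EP mean of 10.59, and for Zic2, at 10.50 against 11.11. For Zic1 the values were 13.50 and 13.76 and for Zic5 11.41 and 11.74. The second Zic4 probe set showed 7.97 against 8.14, so the wide gap was in 1 of the 2 Zic4 probe sets. The tumours also differ in the age and route of gene transfer and, according to the study, in Trp53 genotype and mouse strain, although the labels name CD1 for both, so that these cannot be told apart. The TF value of Zic4 lay 0.55 above the adult mean. With the EP tumours alone, Zic4 in CRISPR-Ptch1 exceeded Ptch1+/- by 0.85 (adjusted p = 0.00962 in limma). On the probe set used for the gene, the TF tumour lay below all Ptch1+/- arrays (9.45 to 10.41), at -0.47 from their mean. On the second Zic4 probe set, at 7.97, it lay above them (6.86 to 7.43). Markers of normal cerebellum were unequal too. The mean of 4 Purkinje cell markers was 9.18 and 10.92 in EP tumours and 8.10 in the TF tumour, and that of oligodendrocyte markers was 9.42 and 9.58 in EP tumours and 7.46 in the TF tumour. Mature granule neuron, astrocyte and Bergmann glia, and microglia and macrophage lists were likewise lower in the TF tumour, and its GNP list lay between the EP tumours. Other lists were higher in the TF tumour. Choroid plexus was at 8.52 against 6.47 and 5.98 in EP tumours, and meninges and fibroblasts at 7.90 against 7.38 and 6.81. Endothelial markers were at 7.77 against 7.08 and 6.97. The part of any of these cells in the ZIC values was not tested.

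The members are set side by side in GTML as a description, without a test. The mean of the 4 GTML arrays minus that of the 12 arrays of Ptch1 models was -7.51 for Zic1, -4.70 for Zic4, -1.63 for Zic2 and -0.04 for Zic5. Within neighbouring pairs, the GTML difference of Zic2 minus that of Zic5 was -1.59, and that of Zic1 minus that of Zic4 was -2.80. The latter value is limited by the lower end of the array scale, to which Zic4 was close.

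Over all 23 arrays Zic1 and Zic4 had a Pearson r of 0.911, which rested on GTML, since without the GTML arrays r was -0.52 over 19 arrays. Zic4 and Zic5 showed the reverse. Their r was 0.25 over 23 arrays and 0.857 without GTML, with both genes lowest in adult cerebellum among these 19 arrays. Zic2 and Zic5, the other neighbours, had r of 0.03 over 23 arrays and 0.15 without GTML. Arrays of a group are not independent of it, and these values are a description.

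**Figure D4:**
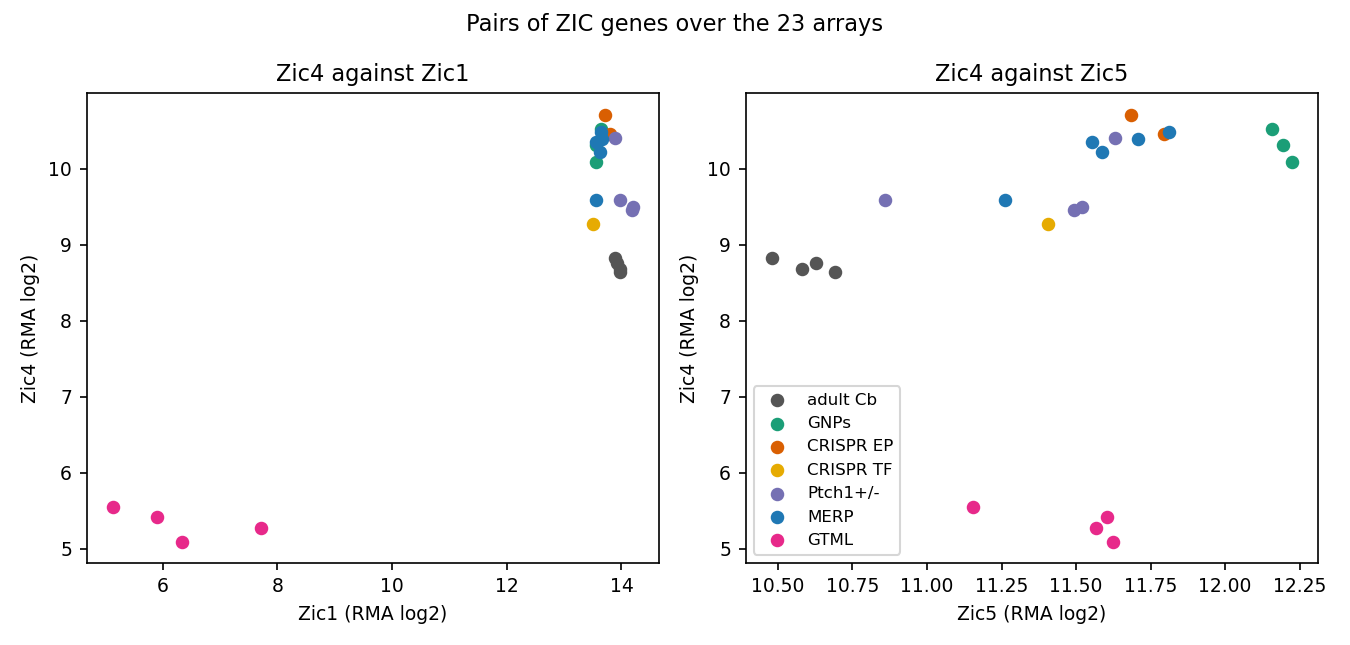
Zic4 level (vertical axis, RMA log2) against the levels of Zic1 and Zic5 (horizontal axes, RMA log2) on the 23 arrays, coloured by group. The 4 GTML arrays are low for both Zic1 and Zic4, whereas for Zic5 they lie among the other tumours, and the remaining 19 arrays run from adult cerebellum to GNPs for Zic4 with Zic5 (r 0.857).

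The genes whose levels were most like each member were taken by the highest Pearson r over the 23 arrays, as a description. For Zic1 they were Lrrn1 (r 0.978), St18 (0.963), Fut8 (0.962), Fkbp14 (0.962) and Ntn1 (0.961). Without GTML their r with Zic1 was between -0.01 and 0.39, so the likeness rested on the GTML arrays. Lrrn1 had a mean of 6.71 in GTML and of 10.89 to 11.97 in the other 6 groups by title. For Zic4 they were Nr2f1 (0.974), Meis1 (0.970), Gm11266 (0.967), C130071C03Rik (0.962) and Nedd4l (0.958). Over the 19 other arrays their r with Zic4 was 0.76 to 0.83, but there they ranked only 370 to 1476 among the genes outside the family. Meis1, a homeobox factor of GNPs, had a mean of 6.60 in GTML, 8.90 in adult cerebellum and 10.42 to 10.65 elsewhere. For Zic2 they were Sema4f (0.938), Sez6l (0.936), Flrt3 (0.912), Nrbp2 (0.911) and Arhgap21 (0.909), with r of 0.45 to 0.82 without GTML. For Zic5 they were Evl (0.925), Jade3 (0.923), Spast (0.917), Macroh2a2 (0.902) and Srsf2 (0.884), with r of 0.89 to 0.95 without GTML.

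The GLI and GLIS factors, the zinc finger relatives of the family, were also lower in GTML in part. Of 6 measured, 4 were higher in CRISPR-Ptch1, 3 in Ptch1+/- and 4 in MERP than in GTML, as were 22.7%, 16.6% and 23.4% of all genes. The medians of the list were 0.87, 0.15 and 0.86 against 0.01, -0.09 and 0.04 over all genes. Gli1, a target and effector of SHH signalling, had a mean of 4.50 in GTML, near the lower quartiles, and of 9.15 to 10.36 in the Ptch1 models by title and GNPs. Gli2, the main activator, had a mean of 9.21 in GTML, 7.41 in adult cerebellum and 11.11 to 11.64 in the others. Gli3, mainly a repressor, was higher than GTML in CRISPR-Ptch1 by 1.22 and in MERP by 0.96, and in Ptch1+/- it was not called (-0.47, adjusted p = 0.319 in limma).

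Among SHH pathway genes, 10 of 11 measured were higher than GTML in each Ptch1 model. In CRISPR-Ptch1, Ptch1+/- and MERP this held for 22.7%, 16.6% and 23.4% of all genes. Cdon, a coreceptor, was the exception and was lower in Ptch1+/- and MERP than in GTML (-1.70 and -1.04). The probe sets of the altered genes do not check the labels, since their place relative to the disrupted part of Ptch1, and whether they read the Mycn transgene, is not given. The Ptch1 probe set ranged from 11.50 to 13.24 in the Ptch1 models and from 9.70 to 10.91 in GTML. The Mycn probe set ranged from 7.15 to 8.39 in GTML, below 11.91 to 12.57 in the Ptch1 models, so the labelled overexpression was not visible in it.

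In bulk samples, fewer cells of a type and less RNA per cell cannot be told apart, and cell type markers were therefore read beside the ZIC values. Markers of GNPs moved with Zic1 and Zic4 in GTML. Of 8, 6 were higher in each of the 3 Ptch1 models than in GTML. So were 22.7%, 16.6% and 23.4% of all genes in CRISPR-Ptch1, Ptch1+/- and MERP. In MERP 1 marker was called lower than in GTML. Against GNPs, 7 were lower in GTML, as were 25.7% of all genes. The mean of the 8 markers was 7.55 to 8.05 on the GTML arrays, 10.60 to 11.11 on the Ptch1 model and GNP arrays and 7.04 to 7.36 in adult cerebellum. Atoh1, which defines GNPs, had a mean of 5.41 in GTML, 4.47 in adult cerebellum and 9.71 to 12.04 elsewhere. Barhl1, a homeobox factor of the granule lineage, was at 4.96 in GTML, and Pax6, another GNP factor, was at 10.02, below the 10.49 to 12.18 of the other groups. Neurod1, a neuronal differentiation factor, was at 13.53, within the 11.91 to 13.82 of the other groups. Whether fewer cells of the granule lineage account for the ZIC levels of GTML was not tested.

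Adult cerebellum, rich in mature granule neurons, had a mean of 12.39 to 12.43 over 7 mature granule neuron markers, EP tumours 9.26 and 10.65, the TF tumour 8.22, and all other arrays 6.20 to 7.62. Gabra6, the receptor subunit that defines these neurons, was at 13.83 in adult cerebellum and 4.10 in GTML. Apart from GTML, Zic1 means by title lay from 13.50 to 14.06 in groups high and low in these markers. Adult cerebellum was above CRISPR-Ptch1, MERP and GNPs by 0.27, 0.34 and 0.36, called only with the compared groups alone in the fit. The part of mature granule neurons in the Zic1 level was not tested. The meninges and fibroblast list, which matters because Zic genes are expressed there, was highest in GNPs, at 8.90 to 9.30 against 5.73 to 7.90 on the tumour arrays and 7.21 to 7.30 in adult cerebellum. Its marker Foxc1 was at 8.66 in GNPs and 5.26 in GTML. GNPs also had the highest mean of the choroid plexus list, at 9.55 to 10.29, and Zic5 was highest in GNPs. The endothelial list was likewise highest in GNPs, at 9.68 to 10.36 against 6.27 to 7.80 on all other arrays. The part of these cells in that result was not tested. The remaining lists were highest in adult cerebellum or varied among tumours. Purkinje cell markers averaged 13.61 to 13.81 in adult cerebellum, 9.18 and 10.92 in EP tumours, 8.10 in the TF tumour and 4.56 to 7.24 on all other arrays, with GTML at 5.08 to 6.89. Astrocyte and Bergmann glia markers averaged 12.13 to 12.20 in adult cerebellum and 6.33 to 10.02 in GTML, and oligodendrocyte markers 12.07 to 12.41 and 5.36 to 9.84, with EP tumours at 9.42 and 9.58. Microglia and macrophage markers averaged 9.57 and 9.90 in EP tumours, 8.58 in the TF tumour and 6.38 to 8.21 on all other arrays.

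Among the GTML tumours, replicate 4 had the highest Zic1 level on both probe sets, 7.71 and 6.72, and also the highest means of the choroid plexus list (8.48 against 6.12 to 6.41) and of the oligodendrocyte list (9.84 against 5.36 to 8.57). Its meninges list was at 6.50, within the 5.96 to 6.94 of the other GTML arrays, and its mean of GNP markers was 8.05 against 7.55 to 8.04. The part of other cells in its Zic1 level was not tested. Without this array Zic1 in GTML was still called lower in all 5 comparisons.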

How the data were processed

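Total RNA of 23 samples was measured on Affymetrix mouse whole-genome expression arrays. The deposited log2 values were made by the authors with Affymetrix Expression Console 1.3.1 using RMA, which corrects background, normalises by quantiles and summarises probes. Which arrays were normalised together is not given in the sources used here, and the number of arrays limits the precision. Of 45101 probe sets, 34958 name a single gene, 932 name several genes and 9211 name none, and only the first kind was kept (34754 matched by Entrez identifier). A gene was represented by its probe set with the highest mean, giving 18194 genes. No detection calls were used. A level near or below the arrays' lower quartiles was read as near background.

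Groups were taken from the sample titles. All 15 pairs of 6 groups were tested in 1 limma 3.58.1 fit (R 4.3.3, lmFit, contrasts.fit, eBayes) over genes and in another over probe sets, and called at a Benjamini-Hochberg adjusted p under 0.05. The script was tested on simulated data. Tables were made with Python 3.11.15 and pandas 2.3.3. Planned as named genes were the members, for each the 5 genes of highest Pearson r, and 14 genes of the lists of GLI relatives and cell markers. Of the latter, Dcn, Ttr, Aif1, Calb1 and Mbp are not given here apart from their lists. SHH pathway genes given with values, namely Ptch1, Mycn and Cdon, and Meis1 as a GNP marker were named after their values were seen. Members and 11 lists, on granule, meningeal, choroid plexus and other cell types and on the GLI and SHH pathways, were chosen with earlier results of these data known. The likeness over 19 arrays without GTML was chosen after the data were seen. Alternatives were another probe set or the mean of probe sets, centring, repeated quantile normalisation, a filter on dim genes, trend and robust eBayes, the compared groups alone, EP or TF tumours alone, the replicate number as a block, and leaving out each array. Promoter windows and positions are from RefSeq GRCm38.p6. The Zic2 window was not used here.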

Additional observations from a re-analysis of the deposited data

Results flagged for a closer look

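In 2 of 32 tests of a probe set in a group of 4 or 5 arrays, 1 array stood apart from the rest of its group by Dixon's criterion. Chance flags about 1 in 20 such tests. On the Zic4 probe set used for the gene, Ptch1+/- replicate 1 was at 10.41, whereas the nearest other Ptch1+/- array was at 9.59, a gap of 0.856 of the range of the group. On the Zic5 probe set used for the gene, GTML replicate 1 was at 11.15, whereas the nearest other GTML array was at 11.57, a gap of 0.883 of the range.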

How the results depend on the processing

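Of the 60 comparisons of a ZIC gene, 41 kept their side of the threshold under all alternatives run. Of these, 28 also kept their direction, including every comparison of Zic1, Zic2 and Zic4 with GTML, and 13 that were not called changed sign. None of the 32 called differences changed sign. With only the groups compared in the fit, Zic1 was also called in CRISPR-Ptch1 minus adult (-0.27), Ptch1+/- minus MERP (0.45), Ptch1+/- minus GNPs (0.47), MERP minus adult (-0.34) and GNPs minus adult (-0.36), and Zic2 in CRISPR-Ptch1 minus Ptch1+/- was lost (-0.63, adjusted p = 0.0744 in limma). With the probe set of highest SD, Zic5 was lost in CRISPR-Ptch1 minus GNPs (-0.82) and minus adult (0.52), and in Ptch1+/- (0.27), MERP (0.24) and GTML (0.42) minus adult. Zic2 in MERP minus GNPs was lost at the same setting (-0.54, adjusted p = 0.0535), with centring (-0.52) and with repeated quantile normalisation (-0.51). With the mean of probe sets Zic4 was called in CRISPR-Ptch1 minus Ptch1+/- (0.69), Ptch1+/- minus MERP (-0.69) and Ptch1+/- minus GNPs (-0.62). With EP tumours alone, Zic2 was lost against Ptch1+/- and adult (both -0.43), Zic5 was lost against GNPs (-0.45), and Zic4 was called against Ptch1+/- (0.85). With the TF tumour alone, a single array assumed to vary like the other groups, Zic4 was 0.55 against adult and Zic5 -0.79 against GNPs, neither called, which with 1 array says nothing of their stability. Zic4 against Ptch1+/- was -0.47 with the TF tumour alone, opposite in sign to the EP tumours alone. The cause of these changes was not tested.

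Over arrays left out in turn, the values ranged from 0.40 to 0.51 for Zic1 in Ptch1+/- minus MERP and 0.43 to 0.53 in Ptch1+/- minus GNPs. For Zic2 they ranged from -0.79 to -0.43 in CRISPR-Ptch1 minus Ptch1+/-, -0.76 to -0.43 in CRISPR-Ptch1 minus adult, 0.20 to 0.46 in Ptch1+/- minus MERP and -0.61 to -0.41 in MERP minus GNPs. For Zic4 they ranged from 0.13 to 0.85 in CRISPR-Ptch1 minus Ptch1+/-, -0.69 to -0.38 in Ptch1+/- minus MERP and -0.79 to -0.46 in Ptch1+/- minus GNPs, and for Zic5 from -0.65 to -0.45 in CRISPR-Ptch1 minus GNPs. The number of genes called in CRISPR-Ptch1 minus MERP, 2428, was 1109 without EP replicate 1 and 1123 without EP replicate 2.

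The replicate numbers share only a number. The deviations of 46 same-numbered pairs of arrays from their group means had a median correlation of -0.01, and 5 exceeded 0.1, against 20 of 153 other pairs. With the replicate block, Zic2 was not called in CRISPR-Ptch1 minus Ptch1+/- (-0.41), minus GNPs (-0.67) and minus adult (-0.41) and in MERP minus GNPs (-0.52), Zic5 was not called in CRISPR-Ptch1 minus GNPs (-0.48), and Zic4 was called in CRISPR-Ptch1 minus Ptch1+/- (0.81). The block changed no other call of a gene.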
